A study of Mus musculus with 16 samples.

Results

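Fc gamma receptors bind the constant part of IgG antibodies and let macrophages recognise antibody-coated particles. The genes described are the 4 mouse Fc gamma receptors Fcgr1, Fcgr4, Fcgr3 and Fcgr2b, with Fcer1g, which encodes the common gamma chain. They were chosen by name, as the probe sets whose platform annotation gives one of these symbols. All 5 were found, with 1 probe set each, among 19938 genes measured. The macrophages were grown from bone marrow of mice with an HA-tagged histone H3.3 knock-in, an allele that every group carried, in medium with L-cell conditioned medium. RNA was hybridised to 16 Affymetrix MoGene 1.0 ST arrays. The groups were Pretreated cells at 0 h (4 arrays), 3 h (2 arrays) and 6 h (2 arrays), and Naïve cells at 0 h (4 arrays), 3 h (2 arrays) and 6 h (2 arrays). Here the hours are read as time in interferon-gamma, and the word Pretreated in the titles is read as an earlier exposure to interferon. The labels state neither the dose nor how long the pretreatment lasted nor how long before 0 h it ended. No untagged mice and no untreated cells at 3 h or 6 h were analysed here.

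The titles place the arrays in 2 sets of 8. Array set 1 holds the 6 h cells with 0 h replicates 1 and 2 of each group, and array set 2 holds the 3 h cells with 0 h replicates 3 and 4. Each comparison was therefore made within a set, and 3 h was not compared with 6 h. Values are log2 intensities as deposited, so a difference of 1 is a doubling. A gene was called changed at a Benjamini-Hochberg adjusted p under 0.05 over all genes in limma. Nothing says that replicates came from separate cultures or animals, so each p reflects the spread among these arrays alone, which may be technical. Within a set each group has 2 arrays, so groups can fail to overlap by chance. The share of all genes whose groups did not overlap was not counted.

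Fcgr1, Fcgr4 and Fcgr3 deliver activating signals. Fcgr1 is the high-affinity IgG receptor, Fcgr4 binds IgG2a and IgG2b with intermediate affinity, and Fcgr3 is a low-affinity receptor. Each of these depends on the common gamma chain encoded by Fcer1g, whose cytoplasmic activation motif (ITAM) is phosphorylated by Src-family kinases and then recruits Syk. Fcgr2b is the inhibitory receptor: its cytoplasmic motif (ITIM) recruits phosphatases such as SHIP-1 and dampens the activating signal. In macrophages the balance between the activating receptors and Fcgr2b sets the threshold for phagocytosis and cytokine release. Interferon-gamma is a textbook inducer of Fcgr1.

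Because the receptors responded differently, the 120 bases before each annotated start are shown, 5′ to 3′, from RefSeq on build GRCm38.p6. They lie at chr3:96293970-96294089 on the minus strand for Fcgr1, chr1:171018806-171018925 on the plus strand for Fcgr4, chr1:171059404-171059523 on the minus strand for Fcgr3, chr1:171234350-171234469 on the minus strand for Fcer1g, and chr1:170976072-170976191 on the minus strand for Fcgr2b. Capitals mark matches to a GAS motif, an interferon-stimulated response element (ISRE) core or a PU.1 core.
Fcgr1: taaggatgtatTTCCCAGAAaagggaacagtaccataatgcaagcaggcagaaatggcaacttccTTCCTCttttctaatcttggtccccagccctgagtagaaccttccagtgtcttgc
Fcgr4: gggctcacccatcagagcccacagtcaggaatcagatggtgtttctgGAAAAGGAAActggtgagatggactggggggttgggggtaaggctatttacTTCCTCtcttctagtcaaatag
Fcgr3: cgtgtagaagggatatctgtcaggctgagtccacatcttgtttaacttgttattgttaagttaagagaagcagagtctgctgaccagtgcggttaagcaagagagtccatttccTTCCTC
Fcer1g: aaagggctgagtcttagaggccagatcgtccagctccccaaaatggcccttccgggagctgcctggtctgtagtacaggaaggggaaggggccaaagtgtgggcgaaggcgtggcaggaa
Fcgr2b: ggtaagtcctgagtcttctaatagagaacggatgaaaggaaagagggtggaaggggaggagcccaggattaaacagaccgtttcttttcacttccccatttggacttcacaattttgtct

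The search covered windows of 250 bases before to 50 bases after the start, on both strands, and all 5 genes had such a window. The GAS motif, TTCNNNGAA, is the core of the interferon-gamma activated site. It matched in Fcgr1 at positions -109 to -101 from the start, and 8.3% of 32851 mouse promoter windows of this length hold it. The ISRE core, GAAANNGAAA, matched in Fcgr4 at -73 to -64, and 3.44% of all windows hold it. This element is bound by interferon regulatory factors. The PU.1 core, GAGGAA (read as TTCCTC on the printed strand), is bound by a lineage factor of macrophages. It matched in Fcgr1 at -55 to -50, in Fcgr4 at -22 to -17 and in Fcgr3 at -6 to -1, while 28.3% of all windows hold it. Fcgr3 has a further window from another annotated start, where the same PU.1 match falls at -15 to -10. No match overlapped another, and the windows of Fcer1g and Fcgr2b hold none of these letters. A match is a description of the sequence, and binding was not measured.

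**Figure D1:**
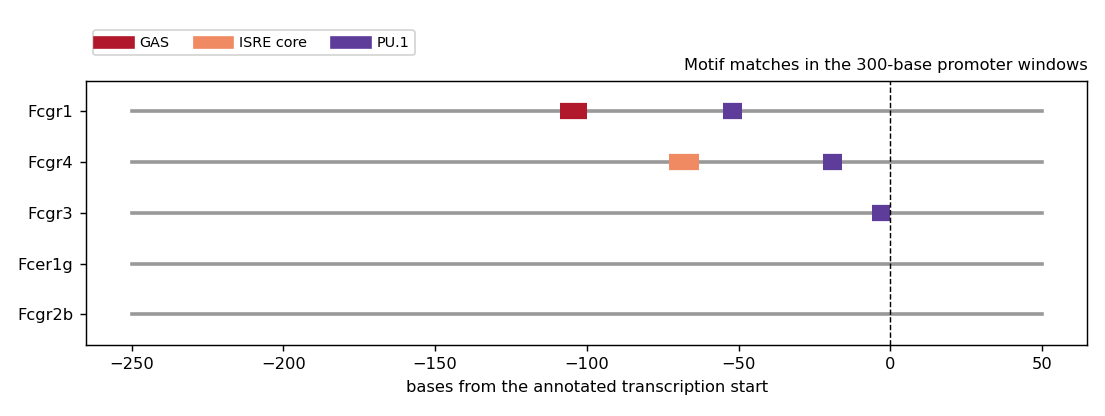
Motif matches in the promoter windows of the 5 genes. The horizontal axis gives bases from the annotated transcription start, and each grey line is 1 window. The GAS match lies in Fcgr1, the ISRE core match in Fcgr4, and PU.1 core matches lie in Fcgr1, Fcgr4 and Fcgr3.

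The libraries carried the marks of macrophages. All 8 macrophage markers (such as Csf1r, Adgre1 and Lyz2) were at or above a log2 level of 6.5 in every group and set, and their summed level was 15.76 to 16.05 in Pretreated arrays and 15.85 to 16.22 in Naïve arrays. Of other cells that carry Fc receptors, mast cell markers summed to 8.55 to 9.44, with Fcer1a at 4.08 to 4.50, and neutrophil markers summed to 8.69 to 9.39. The NK and T cell markers summed to 8.04 to 9.02 and the B cell markers, 6 of 7 measured, to 9.39 to 10.02. The 8 dendritic cell markers summed to 11.35 to 11.65 in Pretreated 6 h cells, against 10.93 to 10.98 in Naïve 6 h cells. At 0 h in the same set they summed to 10.10 to 10.16 in Pretreated cells and 9.68 to 9.91 in Naïve cells. Within that list Clec9a averaged 10.93 in Pretreated 6 h and 9.99 in Naïve 6 h cells, against 7.31 in Pretreated 0 h and 5.55 in Naïve 0 h cells of that set. Xcr1 averaged 7.55 in Pretreated 6 h and 7.65 in Naïve 6 h cells, against 6.83 in Pretreated 0 h and 6.54 in Naïve 0 h cells. Itgax averaged 8.27 in Pretreated and 7.55 in Naïve cells at 0 h in set 2. Flt3 lay between 6.15 and 6.53 and Zbtb46 between 6.64 and 7.16 over all groups. The mast cell and basophil sum also moved with stimulation: it was 9.07 to 9.16 in Naïve 3 h against 8.64 to 8.71 in Naïve 0 h cells of set 2, and 9.40 to 9.44 in Naïve 6 h against 8.98 to 9.11 in Naïve 0 h cells of set 1. In that list Hdc averaged 8.11 in Naïve 3 h against 7.09 in Naïve 0 h cells and 8.40 in Naïve 6 h against 7.29 in Naïve 0 h cells, while the defining receptor chains Fcer1a and Ms4a2 stayed under 6.5 throughout. Whether such cells had a part in the Fc receptor values was not tested, and in bulk RNA more cells of a type cannot be told from more RNA per cell. Array medians were 7.15 to 7.23 in set 1 and 6.89 to 7.0 in set 2.

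The activating receptors Fcgr1 and Fcgr4 rose in interferon-stimulated Naïve cells. At 0 h they were also higher in Pretreated than in Naïve cells. The labels do not say when pretreatment ended, so a lasting effect cannot be told from recent exposure. For the inhibitory receptor Fcgr2b the 0 h difference lay below 0 and did not pass. For Fcgr3, also an activating receptor, it was -0.18 and did not pass either (limma adjusted p = 0.748). The receptors thus did not divide by class at 0 h. In Naïve cells at 3 h, 4 of the 5 genes rose (Fcgr1, Fcgr4, Fcgr3 and Fcgr2b), where 5.46% of all genes were called. In Naïve cells at 6 h, 2 of 5 rose (Fcgr1 and Fcgr4), where 18.3% of all genes were called. At 0 h the same 2 of 5 were higher in Pretreated than in Naïve cells, where 0.963% of all genes were called. In Pretreated cells at 3 h against 0 h, 2 of 5 rose (Fcgr4 and Fcgr2b), where 2.85% of all genes were called. In Pretreated cells at 6 h against 0 h, 3 of 5 rose (Fcgr1, Fcgr4 and Fcgr3), where 5.65% of all genes were called. Of the 5 genes 0 were called between Pretreated and Naïve cells at 3 h, where 0.015% of all genes were, and 0 at 6 h, where 0.702% were. At an unadjusted p under 0.05 the limma fit gave Fcgr2b alone at 3 h and none at 6 h. The 140 genes behind the share at 6 h became 18 without Naïve 6 h replicate 1, 22 without Pretreated 6 h replicate 1, 13 without Pretreated 6 h replicate 2 and 406 without Naïve 6 h replicate 2. These limma fits shared 0 h arrays, so the comparisons are not independent of one another.

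**Figure D2:**
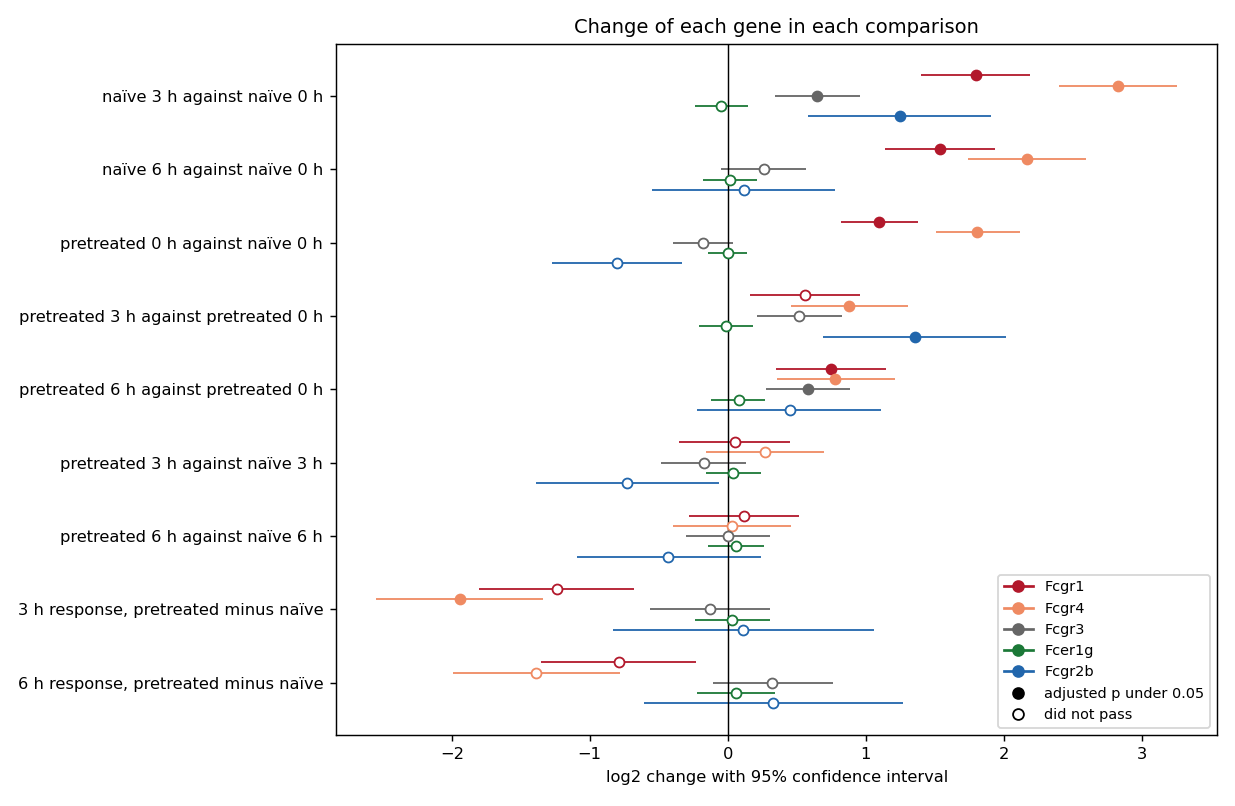
Log2 change of each gene in each of the 9 comparisons, with 95% confidence intervals from the limma fit. The horizontal axis is the log2 change, filled points passed an adjusted p under 0.05, and Fcgr4 at 3 h in Naïve cells (2.83) is the largest change of the 5 genes.

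Fcgr1, the high-affinity receptor, was lowest in unstimulated Naïve cells in both sets. In set 2 its log2 level was 12.65 and 12.90 in Naïve 3 h cells, against 10.70 and 11.26 in Naïve 0 h cells. The groups did not overlap, and the change was 1.80 ± 0.18 (SE), or 3.47-fold, with a limma adjusted p of 5.51e-05. In set 1 it was 12.68 and 12.83 in Naïve 6 h cells, against 11.03 and 11.40 in Naïve 0 h cells. This was a change of 1.54 ± 0.18, or 2.91-fold, with a limma adjusted p of 9.16e-05. Both calls held with each array left out in turn.

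In Pretreated cells at 0 h the Fcgr1 level was 12.02 and 12.23 in set 1 and 12.16 and 12.38 in set 2, against 11.03 and 11.40 in set 1 and 10.70 and 11.26 in set 2 for Naïve cells. Every Pretreated array lay above every Naïve array. Over both sets the difference was 1.10 ± 0.13, or 2.14-fold (limma adjusted p = 0.00065). It was 1.29 in set 2 (adjusted p = 0.00449, with 0.466% of all genes called there) and 0.91 in set 1, where it missed the threshold (adjusted p = 0.0776, with 0.271% of all genes called). The combined call held with each of the 8 arrays left out, and the difference ranked 89 from the highest of all genes.

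Restimulated Pretreated cells reached Fcgr1 levels of 12.82 and 12.84 at 3 h and 12.85 and 12.90 at 6 h. The further change over Pretreated 0 h cells was 0.75 ± 0.18 at 6 h (limma adjusted p = 0.0303), a call lost whichever of its 4 arrays was left out (adjusted p between 0.0671 and 0.181). At 3 h it was 0.56 ± 0.18, which did not pass (adjusted p = 0.163). The Fcgr1 levels of Pretreated and Naïve cells overlapped at 3 h, with a difference of 0.05 and a 95% confidence interval of -0.35 to 0.45. At 6 h they did not overlap, and the difference was 0.12, with an interval of -0.28 to 0.52. In order of mean level, set 1 ran Pretreated 6 h (12.87 ± 0.034, SD, n = 2), Naïve 6 h (12.75 ± 0.106), Pretreated 0 h (12.12 ± 0.151) and Naïve 0 h (11.22 ± 0.259). The first 2 of these did not differ beyond the error of the fit, and set 2 had the same order with 3 h in place of 6 h.

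Fcgr4 had the widest range of the 5 genes, and its pattern was like that of Fcgr1. In Naïve 3 h cells it stood at 12.62 on both arrays, against 10.04 and 9.54 in Naïve 0 h cells of the same set. The change was 2.83 ± 0.20, or 7.11-fold, with a limma adjusted p of 2.62e-06, and it ranked 55 from the highest of all genes. In Naïve 6 h cells it was 13.24 and 13.45, against 10.87 and 11.48 in Naïve 0 h cells of set 1. That change was 2.17 ± 0.20, or 4.50-fold (adjusted p = 1.17e-05), and both calls held with each array left out. The Naïve 0 h mean of Fcgr4 was 11.18 in set 1 and 9.79 in set 2, so the sets began from different levels, and a set difference cannot be told apart from a difference between cultures.

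Fcgr4 was higher in Pretreated than in Naïve cells at 0 h. It was 12.45 and 12.73 in set 1 and 12.05 and 11.95 in set 2 for Pretreated cells, against 10.87 and 11.48 in set 1 and 10.04 and 9.54 in set 2 for Naïve cells. The groups did not overlap, and the difference of 1.81 ± 0.14, or 3.52-fold, had a limma adjusted p of 1.93e-05. It passed in each set, at 1.42 in set 1 (adjusted p = 0.0076) and 2.21 in set 2 (adjusted p = 0.000105). It ranked 28 from the highest of the 19938 genes.

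On restimulation Fcgr4 stood at 12.88 and 12.90 in Pretreated 3 h cells, against 12.05 and 11.95 in Pretreated 0 h cells. The change of 0.88 ± 0.20 passed (limma adjusted p = 0.0311). At 6 h it stood at 13.34 and 13.42 in Pretreated cells, against 12.45 and 12.73 at 0 h, a change of 0.78 ± 0.20 (adjusted p = 0.0361). Both calls were lost whichever array was left out, with adjusted p of at least 0.0841 at 3 h and 0.0645 at 6 h. The level of Fcgr4 in Pretreated cells exceeded that in Naïve cells by 0.27 at 3 h (95% confidence interval -0.16 to 0.70) and by 0.03 at 6 h (-0.40 to 0.46). Neither difference passed. The order of mean levels was the same as for Fcgr1 in both sets, with the stimulated groups not distinguished by the fit.

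The 3 h response of Fcgr4 was therefore smaller in Pretreated than in Naïve cells, 0.88 against 2.83. Fcgr4 stood at 12.88 and 12.90 in Pretreated 3 h cells. Whether the upper end of the array's range compressed differences at such levels was not tested. The difference of the responses was -1.94 ± 0.28 (limma adjusted p = 0.0205), and Fcgr4 was 1 of 16 genes called in that test, all with a negative difference, or 0.0802% of all genes. Without Naïve 0 h replicate 3 the adjusted p was 0.0119, but leaving out any of the other 7 arrays ended the call (up to 0.13). It equals the Pretreated minus Naïve difference at 3 h (0.27) less that at 0 h in the same set (2.21), so it shares arrays with both of those comparisons. For Fcgr1 the difference of the 3 h responses was -1.24 ± 0.26 (adjusted p = 0.252). At 6 h the difference of the responses was -1.39 ± 0.28 for Fcgr4 (adjusted p = 0.101) and -0.79 ± 0.26 for Fcgr1 (adjusted p = 0.314), and 0.145% of all genes were called. Those 29 genes became 157 without Naïve 6 h replicate 2, and 4 without Naïve 6 h replicate 1 or either Pretreated 6 h array. They became 5 without Naïve 0 h replicate 2, 18 without Naïve 0 h replicate 1 and 9 without Pretreated 0 h replicate 2.

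**Figure D3:**
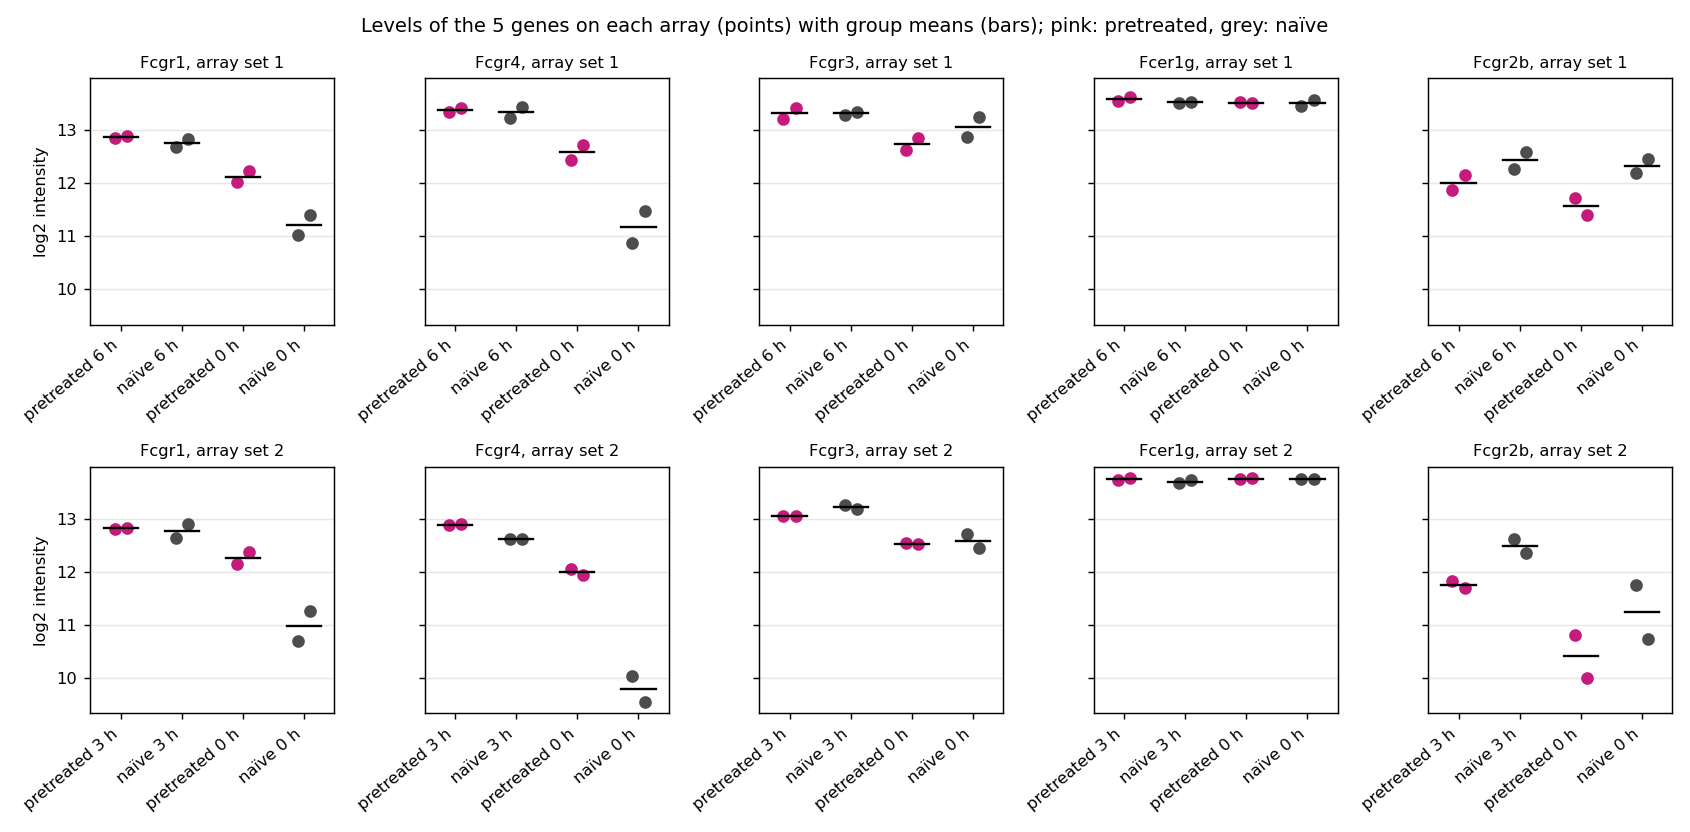
Log2 intensity of each gene on each array, by array set. Points are arrays and bars are group means of 2 arrays. Levels should be read within a panel. Fcgr1 and Fcgr4 are lowest in Naïve 0 h cells, Fcer1g is nearly level, and Fcgr2b is lower in Pretreated than in Naïve group means at each time.

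Fcgr3, the low-affinity activating receptor, moved over a narrower range. It was 13.26 and 13.20 in Naïve 3 h cells, against 12.71 and 12.46 in Naïve 0 h cells of that set. The groups did not overlap, and the change of 0.65 ± 0.14, or 1.57-fold, passed (limma adjusted p = 0.0165). This call was lost without Naïve 0 h replicate 4, without Naïve 3 h replicate 1 and without Naïve 3 h replicate 2, with adjusted p up to 0.163. At 6 h Fcgr3 was 13.29 and 13.35 in Naïve cells, against 12.87 and 13.25 at 0 h, a change of 0.26 ± 0.14 that did not pass (adjusted p = 0.282).

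Unlike Fcgr1 and Fcgr4, Fcgr3 was not called between Pretreated and Naïve cells at 0 h. It was 12.63 and 12.85 in set 1 and 12.54 and 12.53 in set 2 for Pretreated cells, against 12.87 and 13.25 in set 1 and 12.71 and 12.46 in set 2 for Naïve cells. The difference was -0.18, with a 95% confidence interval of -0.40 to 0.04 and a limma adjusted p of 0.748. Restimulation gave 13.06 on both Pretreated 3 h arrays, a change of 0.52 ± 0.14 that did not pass (adjusted p = 0.0793). At 6 h it gave 13.22 and 13.43, a change of 0.58 ± 0.14 that did pass (adjusted p = 0.0298). That call held without Pretreated 0 h replicate 2 (adjusted p = 0.0466) and was lost without any of the other 3 arrays (up to 0.264). The Fcgr3 difference between Pretreated and Naïve cells was -0.17 at 3 h and 0.00 at 6 h, and neither passed. From lowest to highest mean, set 2 ran Pretreated 0 h (12.54 ± 0.006, SD, n = 2), Naïve 0 h (12.58 ± 0.178), Pretreated 3 h (13.06) and Naïve 3 h (13.23 ± 0.048). In that order the 0 h groups did not differ beyond their spread.

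Fcer1g, the shared signalling chain, was the steadiest of the 5 genes. In set 1 its level lay between 13.46 and 13.63 on all 8 arrays, and in set 2 between 13.69 and 13.77. Its largest change in any of the comparisons within a set was 0.08, for Pretreated 6 h against Pretreated 0 h cells, with a 95% confidence interval of -0.12 to 0.27. In Naïve 3 h against Naïve 0 h cells it was -0.05, with an interval of -0.24 to 0.15. Between Pretreated and Naïve cells at 0 h it was 0.00, with an interval of -0.14 to 0.14. Some of its groups did not overlap within a set, such as Pretreated 6 h (13.60 ± 0.045, SD, n = 2) and Naïve 6 h (13.53 ± 0.015), but no difference of Fcer1g passed the limma test. Intensities this high can lie near the upper end of an array's range, which compresses differences, and this was not tested here.

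Fcgr2b, the inhibitory receptor, rose at 3 h in both Naïve and Pretreated cells and was called in no other comparison. It was 12.62 and 12.36 in Naïve 3 h cells, against 11.75 and 10.74 in Naïve 0 h cells of set 2. The change was 1.25 ± 0.31, or 2.37-fold (limma adjusted p = 0.0321). It was lost without Naïve 0 h replicate 4, without Naïve 3 h replicate 1 and without Naïve 3 h replicate 2 (adjusted p up to 0.286), and the SD between the 2 Naïve 0 h arrays was 0.714. At 6 h it was 12.28 and 12.60 in Naïve cells, against 12.19 and 12.46 at 0 h, so the groups overlapped. That change was 0.12 ± 0.31 (adjusted p = 0.914).

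In Pretreated cells at 0 h the Fcgr2b level was 11.73 and 11.40 in set 1 and 10.81 and 10.00 in set 2, against 12.19 and 12.46 in set 1 and 11.75 and 10.74 in set 2 for Naïve cells. The groups did not overlap in set 1 and overlapped in set 2. The difference was -0.80 ± 0.22, with a 95% confidence interval of -1.27 to -0.33. It ranked 41 from the lowest of all genes, but it did not pass over all genes (limma adjusted p = 0.154, unadjusted p = 0.003). It did pass without Naïve 0 h replicate 4 (adjusted p = 0.020). It was -0.76 in set 1 and -0.84 in set 2, and neither passed.

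Restimulation gave Fcgr2b levels of 11.83 and 11.69 in Pretreated 3 h cells, against 10.81 and 10.00 in Pretreated 0 h cells. The change of 1.36 ± 0.31, or 2.57-fold, passed (limma adjusted p = 0.0329). It held without Pretreated 0 h replicate 3 (0.0211) and was lost without any of the other 3 arrays (adjusted p up to 0.339). At 6 h the levels were 11.88 and 12.15 in Pretreated cells, a change of 0.45 ± 0.31 over 0 h that did not pass (adjusted p = 0.649). At both times the 2 Pretreated arrays lay below the 2 Naïve arrays, which is a description only. Fcer1g also separated at both times, with differences of only 0.04 at 3 h and 0.06 at 6 h. Fcgr4 and Fcgr3 separated too at 3 h, and Fcgr1 at 6 h, so such separation was common among these genes. For Fcgr2b at 3 h Pretreated cells had 11.83 and 11.69, against 12.62 and 12.36 in Naïve cells. This was a difference of -0.73 (interval -1.39 to -0.06, limma adjusted p = 1.0, unadjusted p = 0.035). At 6 h Pretreated cells had 11.88 and 12.15, against 12.28 and 12.60 in Naïve cells, a difference of -0.43 (interval -1.09 to 0.24, adjusted p = 0.73). The difference of the 3 h responses of Fcgr2b was 0.11 ± 0.43 and that of the 6 h responses 0.33 ± 0.43, and neither passed. From lowest to highest mean, set 1 ran Pretreated 0 h (11.56 ± 0.238, SD, n = 2), Pretreated 6 h (12.01 ± 0.188), Naïve 0 h (12.32 ± 0.192) and Naïve 6 h (12.44 ± 0.226). The Naïve groups overlapped, while Pretreated 6 h and Naïve 0 h cells were not tested against each other.

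Set against one another as changes from the Naïve 0 h mean of the same set, Fcgr4 moved more than Fcgr2b on every stimulated or Pretreated array. The change of Fcgr4 minus that of Fcgr2b was 1.87 and 2.48 in set 1 and 2.70 and 3.40 in set 2 for Pretreated 0 h arrays. It was 2.49 and 2.66 in Pretreated 3 h cells, against 1.46 and 1.71 in Naïve 3 h cells. It was 2.60 and 2.42 in Pretreated 6 h cells, against 2.1 and 2.0 in Naïve 6 h cells. Pretreated arrays thus lay above Naïve arrays at each time without overlap. These are descriptions without a test of the difference between genes, and unequal probe response can scale such differences. For Fcgr1 the same quantity was 1.25 and 1.41 in Pretreated 3 h cells, against 0.29 and 0.81 in Naïve 3 h cells. The ectodomains of Fcgr3 and Fcgr2b are closely alike in sequence, and whether their probes separate the 2 transcripts was not tested.

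**Figure D4:**
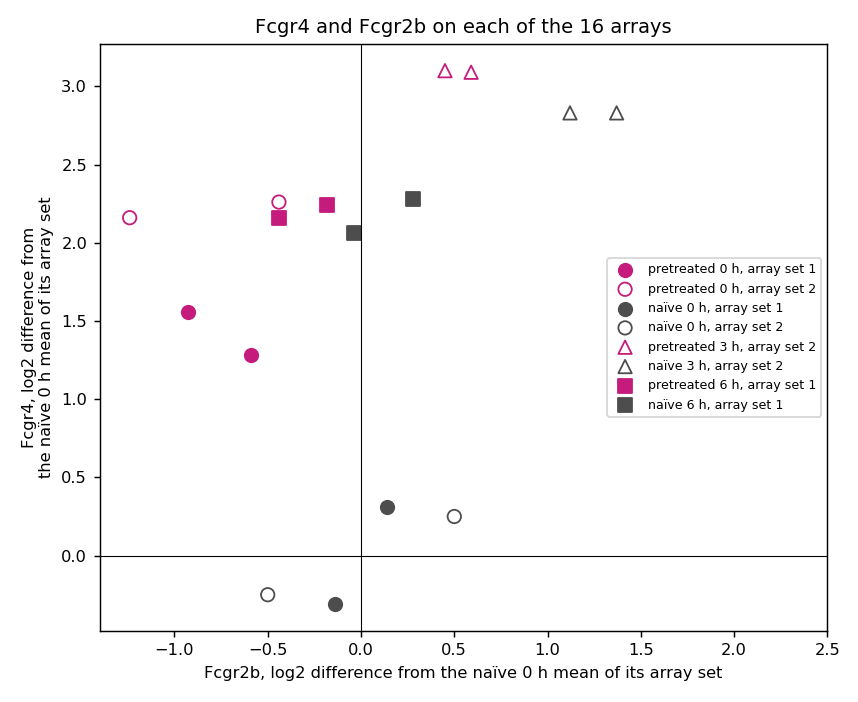
Change of Fcgr4 (vertical) against change of Fcgr2b (horizontal), each as the log2 difference from the Naïve 0 h mean of its array set, for 16 arrays. Pretreated 0 h arrays lie to the upper left, with Fcgr4 at 1.28 to 2.26 and Fcgr2b at -1.24 to -0.44, and Naïve 3 h arrays lie to the upper right.

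Across the 16 arrays, each gene centred on its mean in each set, Fcgr1 and Fcgr4 had a Pearson r of 0.96 and Fcgr3 and Fcgr2b one of 0.80. Fcgr3 had 0.61 with Fcgr1 and 0.61 with Fcgr4. Fcgr2b had 0.20 with Fcgr1 and 0.26 with Fcgr4, and Fcer1g had -0.26 to 0.21 with the other genes. These values describe 16 arrays that share 6 groups. Among other genes with a mean log2 level of at least 6.5, those most like Fcgr1 were Dhx58 (r = 0.987), Rnf213, Zbp1, Gm4951 and Tap1. Those most like Fcgr4 were Iigp1 (0.986), Gm4951, Fgl2, AW112010 and Zbp1, and Iigp1, an immunity-related GTPase, was higher by 4.21 in Pretreated than in Naïve cells at 0 h (limma adjusted p = 1.52e-07). The genes most like Fcgr3 were Clec10a (0.951), Il10ra, Zfp36, Mapk8ip3 and B4galt3. Il10ra, a chain of the interleukin-10 receptor, changed by 1.31 at 3 h in Naïve cells (adjusted p = 0.000311) and by -0.07 between Pretreated and Naïve cells at 0 h (adjusted p = 0.953). The genes most like Fcgr2b were Kmo (0.933), Anxa6, Pacs1, Map1lc3b and Creb3l2. Kmo, an enzyme of kynurenine metabolism, changed by 2.55 at 3 h in Naïve cells (adjusted p = 0.00626) and by -0.74 at 0 h (adjusted p = 0.62). For Fcer1g the nearest gene was Atp5e, at only 0.844. These genes were picked by r over the same arrays, so their changes follow in part from that choice. The limma p-values of Iigp1, Il10ra and Kmo are therefore no independent test.

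Genes around these receptors were read from 8 lists, of which 123 of 137 listed genes were measured. They cover kinases, adaptors, the phagocytic cup and inhibitory phosphatases, which carry or limit the signal (4 lists, 65 genes), and related receptors and interferon-gamma factors. Over all 8 lists, 11 genes rose and 5 fell in Naïve cells at 3 h, and 22 rose and 21 fell at 6 h, or 13% and 35% called, against 5.46% and 18.3% of all genes. The median change of the listed genes was -0.06 at 3 h and -0.01 at 6 h, against 0.00 and -0.01 over all genes. At 0 h 5 of 123 (4.07%, against 0.963% of all genes) were higher and 0 lower in Pretreated than in Naïve cells, with a median of 0.00 against 0.02 over all genes. On restimulation of Pretreated cells 6 rose and 3 fell at 3 h (7.32%, against 2.85% of all genes), and 12 rose and 8 fell at 6 h (16.3%, against 5.65%). In the 4 signalling lists alone, 3 rose and 2 fell at 3 h in Naïve cells (7.69% called), 10 rose and 13 fell at 6 h (35.4%), and 0 were called at 0 h. The interferon-gamma list held 6 of the 11 rises at 3 h and 3 of the 5 genes called at 0 h. Pretreated and Naïve cells differed in 0 of the listed genes at 3 h (limma), where 0.015% of all genes were called. At 6 h 3 were higher and 2 lower in Pretreated cells (4.07%, against 0.702% of all genes). That last count of 5 became 0 without Naïve 6 h replicate 1 or Pretreated 6 h replicate 2, 1 without Pretreated 6 h replicate 1 and 14 without Naïve 6 h replicate 2. The count of 5 at 0 h became 3 without Naïve 0 h replicate 3 or Pretreated 0 h replicate 1, 3 or 4, and the 20 calls in Pretreated cells at 6 h became 5 to 12 with any 1 array left out.

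Of the 6 Src-family, Syk and Tec-family kinases measured, 0 passed at 3 h in Naïve cells. At 6 h Fyn (0.75) and Fgr (0.49) rose and Tec fell by 1.02, so 3 of 6 were called, where 18.3% of all genes were. Fgr was lower in Pretreated than in Naïve cells at 6 h, by -0.74 ± 0.13 (limma adjusted p = 0.0252), a call that rested on single arrays, as stated above. Of 23 adaptors and effectors, 2 (8.7%, against 5.46% of all genes) rose at 3 h in Naïve cells: Pik3cd, a catalytic PI3-kinase subunit (1.37), and Lcp2, the adaptor SLP-76 (1.02). At 6 h 2 rose and 5 fell (30.4% called, against 18.3%), and Pik3cg, the PI3-kinase subunit coupled to G proteins, fell by 1.98. Pik3cg also fell by 1.95 in Pretreated cells at 6 h (limma adjusted p = 0.00186).

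Of 23 genes of the phagocytic cup, 0 passed at 3 h in Naïve cells, where 5.46% of all genes did. At 6 h 3 rose and 4 fell, or 30.4% called, against 18.3% of all genes. Myo1e, a membrane-linked myosin, rose by 1.63, Arf6, a GTPase of membrane delivery, by 1.19 and Vasp by 0.88, and Gsn, the actin-severing gelsolin, fell by 0.69. Among 13 genes in the list of inhibitory phosphatases and adaptors, those called did not move one way. Which of them act downstream of Fcgr2b in these cells was not tested. At 6 h in Naïve cells 3 rose and 3 fell (46.2% called, against 18.3% of all genes): Inpp5d, which encodes SHIP-1, fell by 0.76 and Ptpn22 fell by 1.98, while the adaptor Dok2 rose by 1.39. Ptpn22 was higher in Pretreated than in Naïve cells at 6 h, by 1.45 ± 0.24 (limma adjusted p = 0.0235), a call that rested on single arrays, as stated above.

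Genes in the lists of related receptors also split. The lists are named for a signalling type, and the motif of each listed gene was not checked. Of 13 measured ITAM adaptors and Fcer1g-associated receptors, Cd300lb alone passed at 3 h in Naïve cells, where it fell by 2.78. At 6 h it fell by 2.92, while Clec5a rose by 2.09 and Clec4e, the Fcer1g-coupled lectin Mincle, rose by 1.48. Clec4e was lower in Pretreated than in Naïve cells at 6 h, by -2.36 ± 0.33 (limma adjusted p = 0.0129), a call that rested on single arrays, as stated above. Of 20 myeloid ITIM receptors, Cd300lf rose at 3 h (2.0) and 6 h (1.71) in Naïve cells, while Cd33 fell by 2.12 at 6 h. Lair1 and Cd72 were higher in Pretreated than in Naïve cells at 0 h, by 0.98 ± 0.17 (adjusted p = 0.0141) and 0.68 ± 0.10 (adjusted p = 0.00418). Of 13 other immunoglobulin receptors and binders, the cytosolic antibody receptor Trim21 rose by 1.87 at 3 h and 1.38 at 6 h in Naïve cells. Fcrl1, an Fc receptor-like gene of the same list, fell by 1.99 at 6 h. The share called was 7.69% at 3 h, against 5.46% of all genes, and 15.4% at 6 h, against 18.3%.

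The list of the interferon-gamma receptor and linked factors gave the highest share of calls in Naïve cells. In Naïve cells 6 of 12 measured genes rose and 2 fell at 3 h, and 7 rose and 1 fell at 6 h. Socs1, a feedback inhibitor, rose by 4.25 at 3 h and Irf1, an interferon-induced factor that binds ISRE elements, by 2.93. At 0 h Irf1 (1.11), Stat2 (0.90) and Socs1 (0.54) were higher in Pretreated than in Naïve cells. Irf1 also had a smaller 3 h response in Pretreated cells, by -1.65 ± 0.21 (limma adjusted p = 0.00822), the one gene of the 8 lists called in that test, and the call was lost without Naïve 3 h replicate 2, Pretreated 0 h replicate 4 or Pretreated 3 h replicate 2.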

How the data were processed

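RNA from 16 samples was read on 1-colour MoGene 1.0 ST arrays. The authors deposited log2 intensities per probe set in a value table. The labels do not state the background correction, normalization or summarisation, and the values were used unchanged. Of 35557 probe sets, 21789 had 1 gene symbol, 1621 several and 12147 none in the platform annotation. Genes with several probe sets (999) were read from the one with the highest mean, which left 19938 genes. The number of arrays limits the precision.

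limma 3.58.1 (R 4.3.3) fitted 1 mean for each of 8 combinations of group and array set (8 residual degrees of freedom, 4.26 prior), with eBayes and Benjamini-Hochberg adjustment over all genes. The procedure was tested on simulated data. Named genes are the 5 members, up to 4 called genes with the largest change per list and comparison, and the 5 genes most correlated with each member. Members and lists were chosen with earlier results of these data known. Promoters come from RefSeq. Alternatives covered the features, normalization, model and left-out arrays.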

Additional observations from a re-analysis of the deposited data

Results flagged for a closer look

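Within the 4 Pretreated 0 h arrays, each set against the mean of the 0 h arrays of its set, Fcgr3 was lowest at -0.27 on 1 array, whose gap to the nearest other array was 0.879 of the group's range and above Dixon's 95% limit of 0.829. It was 1 of 10 groups of 4 arrays looked at, and chance alone gives about 1 in 20. The response of Fcgr4 at 3 h differed between Pretreated and Naïve cells by -1.94 in the limma fit (adjusted p = 0.0205).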

How the results depend on the processing

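Of 740 alternative values of the 5 genes, 642 kept direction and side of the threshold, 64 no longer passed, 10 newly passed and 24 changed sign. The calls of Fcgr1 and Fcgr4 in Naïve cells held under every alternative run. At 0 h Fcgr4 also held throughout, and Fcgr1 was lost with array set 1 fitted alone, which left 1 of 5 called. For Naïve 3 h cells (4 called), no array-set term gave 2 and leaving out 1 array gave 2 to 4. All features, the set alone, eBayes with trend and robust options or a 2-fold limit gave 3. Apart from left-out arrays, the Fcgr2b call there held in 7 of 11 settings and the Fcgr3 call in 9 of 11. For Pretreated 3 h against 0 h (2 called), all features, no array-set term or array weights gave 0, the set alone or a 2-fold limit gave 1, the half-set block gave 4, and leaving out 1 array gave 0 to 1. For Pretreated 6 h against 0 h (3 called), all features, no array-set term or the set alone gave 1, array weights or a 2-fold limit gave 0, and leaving out 1 array gave 0 to 1. For the difference of 3 h responses (1 called), an additive set term, no array-set term, the set alone or array weights gave 0, the half-set block gave 2 and leaving out 1 array gave 0 to 1. For the difference of 6 h responses (0 called), an additive set term or the half-set block gave 1. The cause of these shifts was not tested.

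The sign changed near 0. Fcer1g became 0.01 with quantile normalization and 0.07 without a set term at 3 h in Naïve cells, -0.10 without a set term at 6 h, and 0.11 (3 h) and -0.04 (6 h) without a set term in Pretreated cells. Leaving out 1 array moved it between -0.04 and 0.07 (Naïve 6 h), -0.02 and 0.03 (0 h) and -0.03 and 0.0047 (Pretreated 3 h), and quantile normalization turned its difference of 3 h responses to -0.01. Leaving out 1 array moved Fcgr2b between -0.04 and 0.28 in Naïve 6 h cells and its difference of 3 h responses between -0.39 and 0.62. Between Pretreated and Naïve cells it moved Fcgr1 at 3 h between -0.08 and 0.18, Fcgr4 at 6 h between -0.08 and 0.14 and Fcgr3 at 6 h between -0.10 and 0.11 (quantile normalization -0.01). The Fcgr3 difference of 3 h responses was 0.01 with an additive or no set term.

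The titles number the arrays within a set, and the numbers 1 to 4 and 5 to 8 were read as half-sets. Arrays of a half-set deviated together with r of 0.08 to 0.66 in 12 pairs of groups, over 0.1 in 11, and the labels do not say what the numbers mean. With the half-set as a block, the calls over all genes ranged up to 1925 of 19938 at 3 h in Naïve cells, against 1088, up to 684 at 0 h, against 192, up to 845 between Pretreated and Naïve 6 h cells, against 140, and up to 302 for the difference of 6 h responses, against 29. Under that block Fcgr2b passed at 0 h (adjusted p = 0.0122, 3 of 5 called), Fcgr1 (0.0279) and Fcgr3 (0.016) passed in Pretreated cells at 3 h, and the difference of responses passed for Fcgr1 at 3 h (0.0272) and Fcgr4 at 6 h (0.0149). It ended no call of the 5 genes. With 1 array left out, the calls over all genes were 543 to 716 (Naïve 3 h), 2217 to 2981 (Naïve 6 h), 142 to 203 (0 h), 219 to 429 (Pretreated 3 h), 486 to 861 (Pretreated 6 h) and 8 to 14 (difference of 3 h responses). Without centring in sets, 0 to 3 of the 5 genes most like each member were the same.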
